A study of Rattus norvegicus with 24 samples.

Results

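Neurons and pancreatic β-cells share a secretory programme, and both contain small regulatory RNAs (miRs) that are best known from the brain. A miR is cut as a short strand from the 5p or 3p arm of an RNA hairpin, and its seed, the stretch from base 2 to base 8, is the main guide to the mRNAs it represses. The 8 miRs described here are rno-miR-9a-5p, rno-miR-9a-3p, rno-miR-124-3p, rno-miR-128-3p, rno-miR-129-5p, rno-miR-137-3p, rno-miR-153-3p and rno-miR-384-5p. They were chosen by name as neuroendocrine miRs tied to exocytosis, out of 758 miRs on the array. miR-9 and miR-124 are classical neuronal miRs that have also been linked to insulin secretion, miR-128 and miR-137 are brain-enriched miRs known for their roles in neuronal excitability and synapse function, miR-129 and miR-384 have been studied in synaptic plasticity, and miR-153 is encoded within Ptprn2, the gene of a dense-core vesicle protein.

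The miRs were measured in INS1 cells, an insulin-secreting rat insulinoma line often used in place of primary β-cells. The 8 groups, each of 3 arrays, were untreated cells (Ctrl), cells given IL-1β at 150 pg/ml together with IFN-γ at 0.1 ng/ml (Cyt), cells given 125 nM Givinostat without cytokines (Giv_Ctrl), and cells given Givinostat 1 h before the same cytokines (Giv_Cyt), each at 6 h and at 24 h. Givinostat (ITF2357) inhibits lysine deacetylases, and the cytokines stand for the inflammation that harms β-cells in diabetes. All groups came from the same cell line. The sources do not settle whether the 3 arrays of a group came from separate cultures, so the errors and p-values given here measure the spread between arrays, which may be technical.

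RefSeq records of rat assembly GRCr8 held mature sequences for 7 of these miRs. They are shown because the seed separates the miRs by the mRNAs they could pair with, and the seed is in capitals.
miR-9a-5p: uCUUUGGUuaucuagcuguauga
miR-9a-3p: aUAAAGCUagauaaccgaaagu
miR-128-3p: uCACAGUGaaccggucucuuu
miR-129-5p: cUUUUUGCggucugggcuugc
miR-137-3p: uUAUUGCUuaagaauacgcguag
miR-153-3p: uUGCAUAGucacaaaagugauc
miR-384-5p: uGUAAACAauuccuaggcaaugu
The 7 seeds were all different. Of the 758 miRs on the array, 685 had a mature sequence in these records, and the seed of miR-384-5p was shared by 3 of them, all of the miR-30 family. Their sequences are shown because miR-384-5p and the miR-30 family part after the seed.
miR-30a-5p: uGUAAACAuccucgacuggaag
miR-30c-5p: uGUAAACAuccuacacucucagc
miR-30e-5p: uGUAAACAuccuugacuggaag
Counted base by base from the 5′ end, miR-384-5p was identical to miR-30a-5p at 12 of 22 bases, to miR-30c-5p at 11 of 23 and to miR-30e-5p at 11 of 22. The other 6 seeds were found in no other array miR with a sequence in these records.

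The array's annotation places the probes on rat build rn4. The miR-129-5p probe lies at chr3:78648955-78648969 and chr4:55892173-55892187, since 2 hairpins carry this strand. The miR-153-3p probe lies at chr6:144521092-144521110 and the miR-137-3p probe at chr2:214802358-214802376. The miR-128-3p probe lies at chr8:116727289-116727308 and chr13:40907625-40907644. No position is listed for miR-384-5p, and miR-9a-5p and miR-124-3p have 3 positions each. In the GRCr8 gene table, the miR-153 hairpin lies within the span of Ptprn2, and the 2 miR-128 hairpins lie within R3hdm1 and Arpp21, the latter coding for a phosphoprotein regulated by cAMP. The hairpins Mir129-1, Mir137, Mir124-1 and Mir124-2 lie within long non-coding RNA genes, and Mir129-2 and Mir124-3 within no other listed gene.

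Each miR was read by 16 spots of 2 probe sequences that differ by 1 base in length. The probes of 7 miRs, those with a sequence above, pair up to the 3′ end and leave out bases at the 5′ end. Those of miR-129-5p pair with bases 7 to 21 and 8 to 21, those of miR-153-3p with bases 3 to 22 and 4 to 22, and the longer one of miR-128-3p with bases 2 to 21, the whole seed included. The scanner software marks spots well above background, and a miR with 8 or more marked spots out of 16 counted as well above background on that array. By this rule miR-128-3p, miR-129-5p, miR-153-3p and miR-384-5p were well above background on all 24 arrays and miR-124-3p on 21. miR-9a-5p passed on 1 array, replicate 1 of 24h_Cyt, while miR-9a-3p and miR-137-3p passed on none, so the values of these 3 miRs are measured signals close to background, from which no fold is read. For miR-153-3p the mark came from the 20-base probe, whose 8 spots were marked on every array, whereas no spot of the 19-base probe was marked on 23 of the 24 arrays. The miR-124-3p mark likewise came from the 15-base probe, and no spot of its 14-base probe was marked on any array.

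The arrays lay on 4 slides and differed in brightness. Slide 1 held replicate 1 of 6h_Giv_Ctrl beside replicates 1 and 2 of 24h_Cyt, whose replicate 3 lay on slide 2. Slide 4 held the 3 arrays of 24h_Ctrl, so 24h_Cyt and 24h_Ctrl cannot be told apart from their slides. The brightness of an array was taken as the 75th percentile of intensity, less background, of the 117 miRs detected on every array. It lay from 271 to 347 in 24h_Ctrl and from 303 to 452 in 24h_Giv_Ctrl, against 596 to 1003 in 24h_Cyt. Every array of 24h_Giv_Cyt was brighter than every array of 24h_Giv_Ctrl, and the highest reached 571. Replicate 1 of 6h_Giv_Ctrl, which had no cytokines, reached 682, and all 8 miRs were higher there than on the other 2 arrays of its group, by a median of 0.37 on the log2 scale. Of the 168 miRs detected on every array of 1 group or more, 100 were higher on that array, with a median difference of 0.14. The part of slide and brightness in the results below was not tested beyond the values given. Of the markers of other cell types, 4 of 4 blood cell miRs and the liver miR-122-5p were well above background on no array, 1 of 3 muscle miRs (miR-206-3p) on all 24, and both islet markers, miR-375-3p and miR-7a-5p, on all 24.

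**Figure D1:**
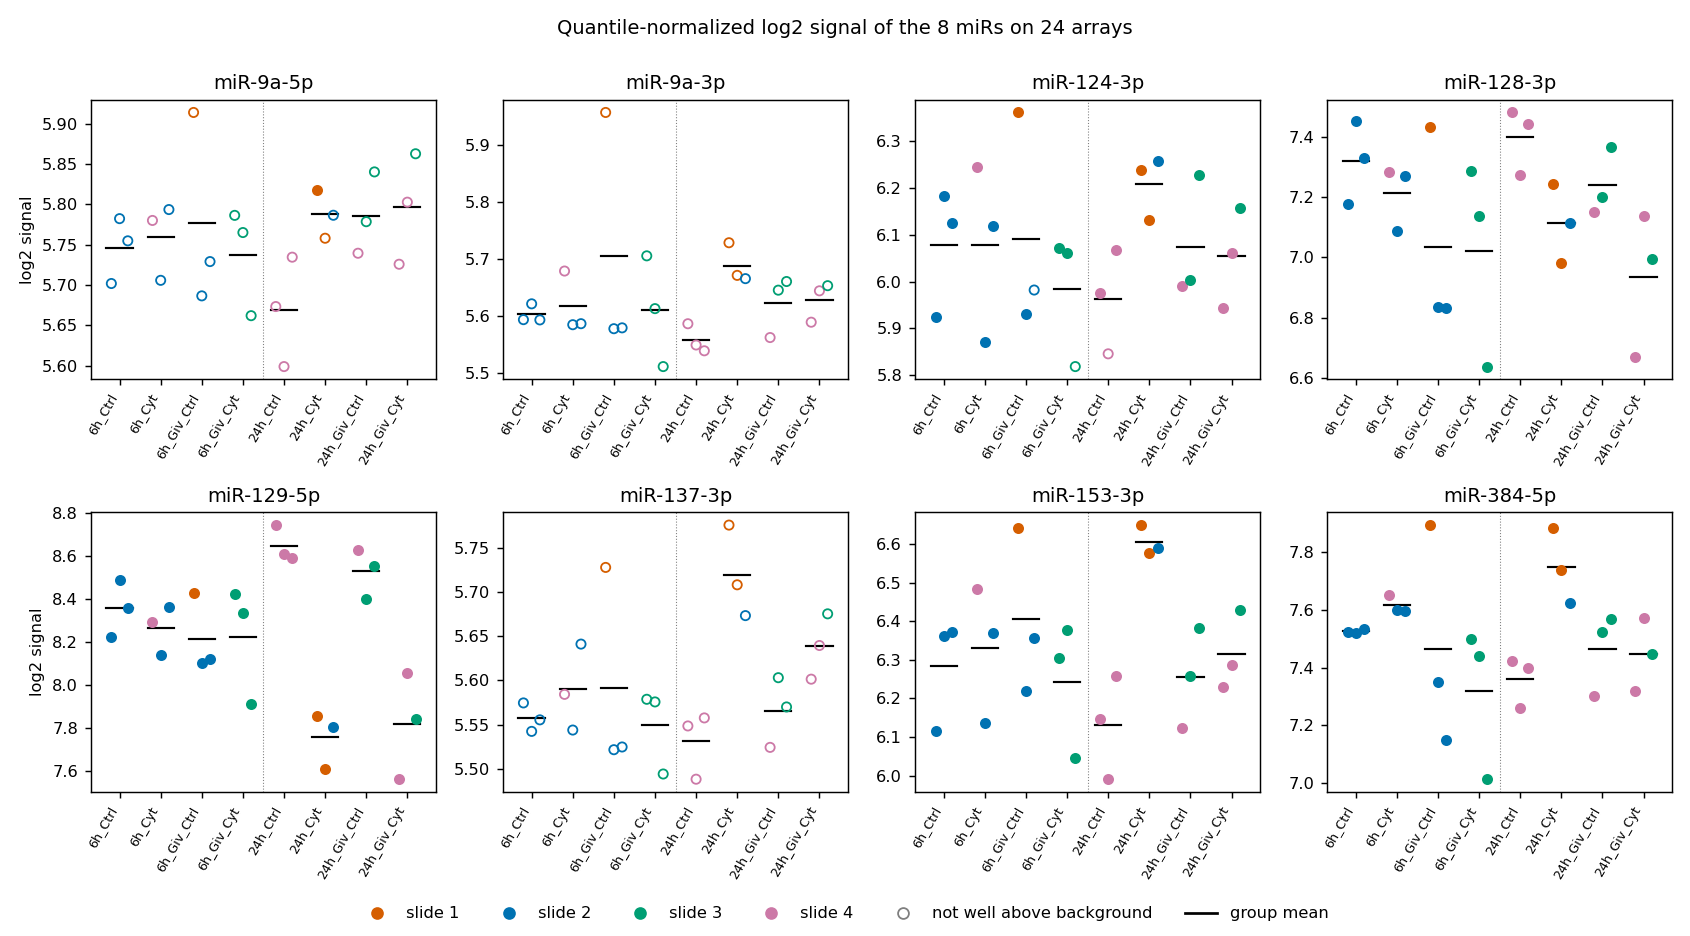
Quantile-normalized log2 signal (y axes, each with its own range) of the 8 miRs in the 8 groups (x axes), with 1 point per array coloured by slide, open points for arrays on which the miR was not well above background, and a bar at the mean of the 3 arrays. All 6 arrays of 24h_Cyt and 24h_Giv_Cyt lie at a miR-129-5p signal of 8.05 or below, as does 1 array of the other groups, replicate 3 of 6h_Giv_Cyt (7.91), and the slide 1 array of 6h_Giv_Ctrl lies above the rest of its group in every panel.

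After 24 h of cytokines, the quantile-normalized signal of miR-129-5p fell and that of miR-153-3p rose, and the other detected miRs did not pass the test. The normalized miR-129-5p signal went to 0.538 of that of the controls, whereas without normalization between arrays its log2 signal differed by 0.04. No fold is read for miR-153-3p, 1 of whose 2 probes was near background. A miR was called when the absolute log2 fold change (log2FC) exceeded 0.1375 and the p-value from limma, adjusted by Benjamini-Hochberg over the 758 miRs, was below 0.05. In 24h_Cyt vs 24h_Ctrl 3 of the 8 miRs were called, against 31 (4.09%) of all 758, of which 20 (2.64%) were higher and 11 (1.45%) lower. The split of higher and lower calls depended on the scaling: it was 41 to 28 when the scanner's processed signal was scaled by its 75th percentile over detected miRs, 4 to 6 when scaled over all miRs, and 173 to 0 without normalization between arrays.

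The log2 signal of miR-129-5p was 8.75, 8.61 and 8.59 on the 3 arrays of 24h_Ctrl and 7.85, 7.61 and 7.80 on those of 24h_Cyt. The cytokine arrays all lay below the controls, by far more than the spread within either group. The means were 8.65 ± 0.084 and 7.76 ± 0.13 (SD, n = 3), and the log2FC was -0.89 (SE 0.13, 95% interval -1.18 to -0.61, adjusted p = 0.000533 from limma). Both probe sequences gave nearly the same difference, -0.89 for the 15-base and -0.90 for the 14-base probe. Without normalization between arrays the miR-129-5p signal differed by 0.04 (adjusted p = 0.933), while the median over the 168 detected miRs was then higher by 0.70, so the fall is one relative to the other miRs on the array. With slide as a fixed block the log2FC was -0.94 and no longer called (SE 0.28, adjusted p = 0.336 from limma). The call was also lost without slide 1, which leaves 1 array of 24h_Cyt (-0.85, adjusted p = 0.0539), and with the processed signal scaled over all miRs (-1.21, adjusted p = 0.201).

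The 3p arms of the same hairpins were on the array too, and their sequences are shown because both arms are cut from the same precursor.
miR-129-1-3p: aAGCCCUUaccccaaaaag
miR-129-2-3p: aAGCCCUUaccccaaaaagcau
Since these strands differ only in length, their probes may read both. They were well above background on all 24 arrays and were not called. The log2 signal of miR-129-1-3p was 6.97 ± 0.070 (SD, n = 3) in 24h_Ctrl and 7.14 ± 0.061 (SD, n = 3) in 24h_Cyt, which differed by 0.17 (adjusted p = 0.143 from limma). For miR-129-2-3p the means were 7.96 ± 0.15 and 8.13 ± 0.099 (SD, n = 3), with a log2FC of 0.17 (adjusted p = 0.333 from limma). The log2FC of miR-129-5p was thus lower by 1.06 than that of either 3p arm. This difference is taken within each array. The signals include background and the arms lie at unlike levels, so a change in brightness need not cancel in it. The part of brightness was not tested beyond the values given. Of the 20 other settings, 6 cannot change a log2FC. Among the 14 that did, the median of the spots and the deposited table hold the same values within rounding. Under these 14 the difference lay between -1.37 and -0.79 against miR-129-1-3p and between -1.29 and -0.89 against miR-129-2-3p. In a two-sided exact permutation test over the 3 and 3 arrays, p was 0.1 for each 3p arm, the smallest value this design allows.

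**Figure D2:**
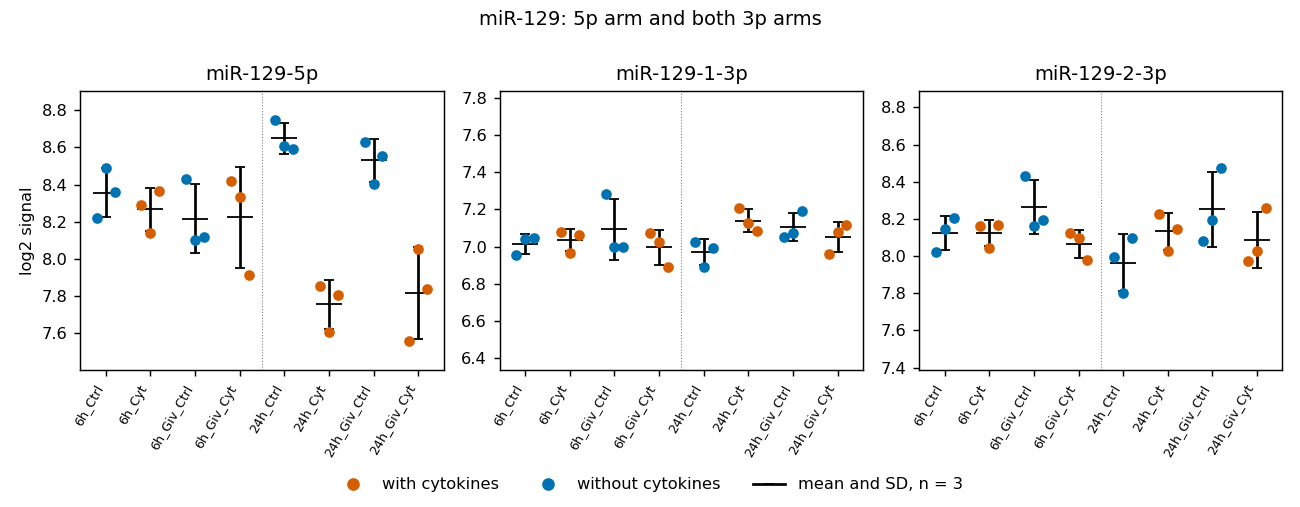
Log2 signal (y axes, equal spans of 1.5) of miR-129-5p, miR-129-1-3p and miR-129-2-3p in the 8 groups, with 1 point per array coloured by cytokine treatment, and the mean with SD of 3 arrays. miR-129-5p lies at 7.76 and 7.82 in the cytokine groups at 24 h against 8.65 and 8.53 without cytokines, whereas the 3p arms of 24h_Cyt lie 0.17 above 24h_Ctrl and those of 24h_Giv_Cyt lie 0.05 and 0.16 below 24h_Giv_Ctrl. Without normalization between arrays the miR-129-5p signal of 24h_Cyt lay 0.04 above 24h_Ctrl.

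miR-153-3p moved the other way. Its log2 signal was 6.15, 5.99 and 6.26 in 24h_Ctrl and 6.65, 6.58 and 6.59 in 24h_Cyt. All cytokine arrays lay above all controls, although by less than for miR-129-5p, and they lay closer together than the controls did. The means were 6.13 ± 0.13 and 6.60 ± 0.039 (SD, n = 3), and the log2FC was 0.47 (SE 0.12, 95% interval 0.23 to 0.72, adjusted p = 0.0183 from limma). The 20-base probe gave a difference of 0.71 and the 19-base probe, near background, 0.24. Under the 14 settings that changed the value it lay between 0.23 and 1.19. The call was lost with slide as a fixed block (log2FC 0.58, adjusted p = 0.374), without slide 1 (0.46, adjusted p = 0.290), with array brightness as a covariate (0.23, adjusted p = 0.496), with the processed signal scaled over all miRs (1.12, adjusted p = 0.201), with the pooled correlation test (adjusted p = 0.103) and without replicate 1 or 2 of 24h_Ctrl or replicate 1 or 2 of 24h_Cyt (adjusted p 0.0562 to 0.0961).

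The third called member, miR-137-3p, was below the detection rule on every array. Its measured log2 signal was 5.53 ± 0.038 (SD, n = 3) in 24h_Ctrl and 5.72 ± 0.052 (SD, n = 3) in 24h_Cyt, a difference of 0.19 (adjusted p = 0.0175 from limma), and no fold is read from it. With array brightness as a covariate, a setting chosen after the data were seen, the difference was -0.0014. The call was lost under 7 of the 19 other settings that tested this miR, that one among them, and without replicate 2 of 24h_Ctrl and without replicate 1 or 2 of 24h_Cyt (adjusted p 0.0559 to 0.108).

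For miR-384-5p the log2 signal was 7.42, 7.26 and 7.40 in 24h_Ctrl and 7.88, 7.74 and 7.62 in 24h_Cyt. The groups did not overlap, with the 2 slide 1 arrays the highest. The log2FC of 0.39 did not pass (SE 0.15, 95% interval 0.08 to 0.69, adjusted p = 0.123 from limma). Its call depended on the test and on the scaling. With the pooled correlation test, in which the 16 spots of an array enter as correlated values, the SE was 0.056 and the adjusted p 1.44e-09, and it was also called with a fit to the compared groups alone (adjusted p = 0.031) and without replicate 1 of 6h_Giv_Ctrl (adjusted p = 0.0325). It was called as well without normalization between arrays (log2FC 1.36, adjusted p = 0.000169) and with the processed signal scaled over detected miRs (0.52, adjusted p = 0.00696). With array brightness as a covariate the log2FC was -0.23, and with slide as a fixed block 0.17. Of its seed mates found by sequence, all well above background on 24 arrays, miR-30c-5p was called (log2FC 0.27, SE 0.066, adjusted p = 0.0183 from limma). miR-30a-5p (0.28, adjusted p = 0.274) and miR-30e-5p (0.34, adjusted p = 0.123) were not. By name miR-30d-5p belongs to the same family, but it was not among the mates found by sequence. Detected on 24 arrays, it differed by only 0.06 (SE 0.10, adjusted p = 0.758 from limma).

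miR-128-3p was lower and miR-124-3p higher with cytokines, neither past the test. The log2 signal of miR-128-3p was 7.48, 7.27 and 7.44 in 24h_Ctrl and 7.24, 6.98 and 7.12 in 24h_Cyt, giving a log2FC of -0.29 (SE 0.17; limma, adjusted p = 0.306), which became 0.57 (adjusted p = 0.0388) without normalization between arrays. For miR-124-3p it was 5.98, 5.85 and 6.07 in 24h_Ctrl, where replicate 2 was not well above background, and 6.24, 6.13 and 6.26 in 24h_Cyt, giving a log2FC of 0.25 (SE 0.12; limma, adjusted p = 0.209). This value averages a difference of 0.32 from the 15-base probe with 0.17 from the 14-base probe, which was not above background. miR-124-3p was called without normalization between arrays (0.63, adjusted p = 1.24e-05) and with the processed signal scaled over detected miRs (0.73, adjusted p = 0.0348). The near-background strands of miR-9a differed by 0.12 for the 5p arm and 0.13 for the 3p arm (adjusted p = 0.179 and 0.279). For all 8 miRs the 3 cytokine arrays lay wholly on one side of the 3 control arrays, against 278 (36.7%) of the 758 miRs.

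**Figure D3:**
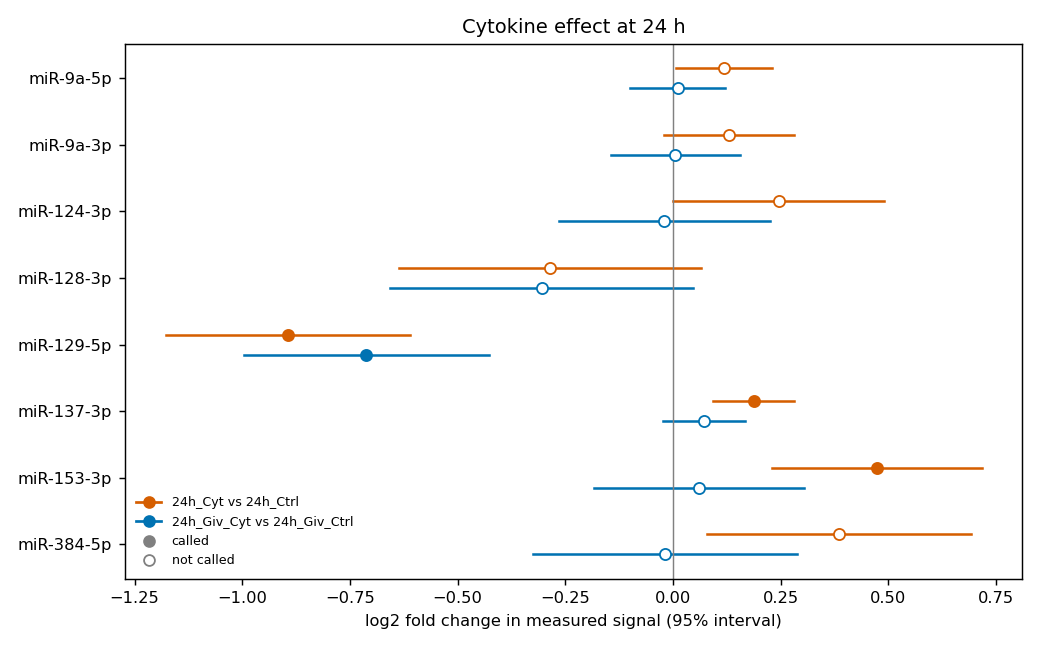
Log2FC in measured signal (x axis) of the 8 miRs (y axis) for cytokines without Givinostat (24h_Cyt vs 24h_Ctrl) and with it (24h_Giv_Cyt vs 24h_Giv_Ctrl); points are estimates from limma, bars 95% intervals, and filled points were called. miR-129-5p lies at -0.89 and -0.71, called in both, although without normalization between arrays it lay at 0.04 and -0.24, and miR-153-3p lies at 0.47 without and 0.06 with Givinostat (0.97 and 0.39 without normalization between arrays).

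In the presence of Givinostat, miR-129-5p was the only one of the 8 miRs called after 24 h of cytokines. Of the 758 miRs, 4 (0.528%) were called in 24h_Giv_Cyt vs 24h_Giv_Ctrl, of which 2 (0.264%) were higher and 2 (0.264%) lower. The log2 signal of miR-129-5p was 8.63, 8.40 and 8.56 in 24h_Giv_Ctrl and 7.56, 8.05 and 7.84 in 24h_Giv_Cyt. Again the groups did not overlap, with a wider spread among the cytokine arrays than in 24h_Cyt. The means were 8.53 ± 0.12 and 7.82 ± 0.25 (SD, n = 3). The log2FC was -0.71 (SE 0.13, 95% interval -0.995 to -0.43, adjusted p = 0.00842 from limma), a normalized signal at 0.611 of that without cytokines. Unlike the comparison without Givinostat, this one could be made within slides. The difference was -0.64 on slide 3 (1 array against 2) and -0.82 on slide 4 (2 against 1). With slide as a fixed block the log2FC was -0.73 (adjusted p = 0.0314). On each of these slides the cytokine arrays were also the brighter ones. The part of brightness in these differences was not tested beyond the values given. The call was lost without replicate 1 of 24h_Giv_Ctrl (adjusted p = 0.0616), without replicate 1 of 24h_Giv_Cyt (adjusted p = 0.0578), with a fit to these groups alone (adjusted p = 0.227), with the longer probe alone (log2FC -0.56, adjusted p = 0.141) and without normalization between arrays (-0.24, adjusted p = 0.256).

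The 3p arms were again not called: the log2FC was -0.05 for miR-129-1-3p (adjusted p = 0.708) and -0.16 for miR-129-2-3p (adjusted p = 0.503), so that of miR-129-5p was lower by 0.66 and 0.55. Under the 13 settings that changed them, these differences lay between -0.83 and -0.38 and between -0.65 and -0.27, the smallest of each being those without outlier spots. Averaged over the comparisons with and without Givinostat, which share no array, the 5p change was lower than the 3p change by 0.86 for miR-129-1-3p and 0.80 for miR-129-2-3p. A permutation test was run on these averages, but they were chosen after the values were seen, so its p-value is not given.

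The remaining miRs gave smaller differences under Givinostat. The log2 signal of miR-153-3p was 6.12, 6.26 and 6.38 in 24h_Giv_Ctrl and 6.23, 6.29 and 6.43 in 24h_Giv_Cyt, which overlap, with a log2FC of 0.06 (SE 0.12, 95% interval -0.18 to 0.30, adjusted p = 0.814 from limma). It was 0.39 both without normalization between arrays, where it was called (adjusted p = 0.0342), and with the processed signal scaled over detected miRs (adjusted p = 0.116). That of miR-384-5p was 7.30, 7.52 and 7.57 against 7.32, 7.57 and 7.45, also overlapping, with a log2FC of -0.02 (95% interval -0.33 to 0.29, adjusted p = 0.960). For miR-128-3p the log2FC was close to that without Givinostat (-0.30, SE 0.17, adjusted p = 0.466; 0.16 without normalization between arrays). In this comparison 2 of the 8 miRs, miR-128-3p and miR-129-5p, had groups that did not overlap, against 179 (23.6%) of the 758 miRs.

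To compare the cytokine effects with and without Givinostat, their difference (with minus without) was tested as a limma term. At 24 h it passed for none of the 8 miRs and none of the 758 (0%), of which 39 had an unadjusted p below 0.05. The term was -0.41 for miR-153-3p (95% interval -0.76 to -0.07, unadjusted p = 0.0215, adjusted p = 0.871), -0.40 for miR-384-5p (-0.84 to 0.03, adjusted p = 0.871) and 0.18 for miR-129-5p (-0.22 to 0.58, adjusted p = 0.951). The pooled correlation test called that of miR-384-5p (adjusted p = 7.63e-05). At 6 h the term also passed for none of the 758 miRs (0%), of which 12 had an unadjusted p below 0.05.

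Set directly against each other, 24h_Giv_Cyt and 24h_Cyt gave a call for none of the 8 miRs and for 1 (0.132%) of the 758. The log2FC was -0.29 for miR-153-3p (95% interval -0.53 to -0.05, unadjusted p = 0.0223, adjusted p = 0.911 from limma) and -0.30 for miR-384-5p (-0.61 to 0.01, adjusted p = 0.911). miR-129-5p differed by 0.06 (95% interval -0.22 to 0.35, adjusted p = 0.971). For miR-384-5p the pooled correlation test gave an adjusted p of 2.48e-05. The comparisons of 24h_Cyt with 24h_Ctrl and with 24h_Giv_Cyt share the 24h_Cyt arrays.

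At 6 h no member was called in any of the 4 comparisons, and none of the 758 miRs was (0% in each), while 24 to 34 of the 758 had an unadjusted p below 0.05. The log2FCs of the 8 miRs lay between -0.11 and 0.09 in 6h_Cyt vs 6h_Ctrl, between -0.16 and 0.01 in 6h_Giv_Cyt vs 6h_Giv_Ctrl, between -0.29 and 0.12 in 6h_Giv_Ctrl vs 6h_Ctrl and between -0.30 and -0.01 in 6h_Giv_Cyt vs 6h_Cyt. For miR-129-5p the log2 signal was 8.22, 8.49 and 8.36 in 6h_Ctrl and 8.29, 8.14 and 8.37 in 6h_Cyt, which overlap, with a log2FC of -0.09 (95% interval -0.37 to 0.19, adjusted p = 0.999 from limma). The lowest value of that last comparison was that of miR-384-5p, at 7.65, 7.60 and 7.59 in 6h_Cyt and 7.50, 7.44 and 7.01 in 6h_Giv_Cyt (log2FC -0.30, SE 0.15, adjusted p = 0.926). The pooled correlation test called it (adjusted p = 8.04e-05), and without replicate 3 of 6h_Giv_Cyt, the array at 7.01, the log2FC was -0.15.

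Over time, the differences in miR-129-5p had opposite signs with and without cytokines, and none passed. From 6 h to 24 h the log2FC was -0.51 in Cyt (SE 0.13, 95% interval -0.80 to -0.23, adjusted p = 0.0992 from limma) and -0.40 in Giv_Cyt (adjusted p = 0.279), against 0.29 in Ctrl (adjusted p = 0.822) and 0.31 in Giv_Ctrl (adjusted p = 0.958). Without normalization between arrays the first of these became 0.20 and the second 0.04. On slide 2, which held both times of Cyt, the difference was -0.45 (1 array against 2). With each array left out in turn, the adjusted p of the difference in Cyt ranged from 0.0375, without replicate 3 of 6h_Giv_Cyt, to 0.373, without replicate 2 of 24h_Cyt. miR-153-3p was higher by 0.28 in 24h_Cyt than in 6h_Cyt (adjusted p = 0.271). The shares of all 758 miRs called were 0.792% in 24h_Cyt vs 6h_Cyt, 0.396% in 24h_Giv_Cyt vs 6h_Giv_Cyt and 0% over time in untreated cells and in cells given Givinostat alone, where 39 and 30 miRs had an unadjusted p below 0.05.

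The term for the cytokine effect at 24 h minus that at 6 h was called for 4 (0.528%) of the 758 miRs and for none of the 8. For miR-129-5p it was -0.80 (SE 0.19, 95% interval -1.20 to -0.40, adjusted p = 0.0696 from limma). It passed with a fit to these 4 groups alone (adjusted p = 0.0131) and with detected miRs alone (adjusted p = 0.0211), as it did without replicate 1 of 24h_Giv_Cyt, replicate 1 of 6h_Giv_Ctrl or replicate 3 of 6h_Giv_Cyt (adjusted p 0.0214 to 0.0466). It did not pass with slide as a fixed block (-0.83, adjusted p = 0.999), and without normalization between arrays it was -0.02. Givinostat without cytokines called none of the 758 miRs at 24 h (0%), and 32 had an unadjusted p below 0.05. In that comparison the log2FCs of the 8 miRs lay between -0.16 and 0.12, with -0.12 for miR-129-5p (adjusted p = 0.992).

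The order of the groups by miR-129-5p level was 24h_Ctrl (8.65), 24h_Giv_Ctrl (8.53), 6h_Ctrl (8.36), 6h_Cyt (8.27), 6h_Giv_Cyt (8.22), 6h_Giv_Ctrl (8.22), 24h_Giv_Cyt (7.82) and 24h_Cyt (7.76), in means of log2 signal. The only neighbours whose arrays did not overlap were 6h_Giv_Ctrl and 24h_Giv_Cyt. For miR-153-3p the highest mean was that of 24h_Cyt (6.60), followed by 6h_Giv_Ctrl (6.41), and the lowest that of 24h_Ctrl (6.13), with all neighbours overlapping. For miR-384-5p it ran from 24h_Cyt (7.75) and 6h_Cyt (7.62) down to 24h_Ctrl (7.36) and 6h_Giv_Cyt (7.32), and of its neighbours only 6h_Cyt and 6h_Ctrl did not overlap. miR-128-3p was highest in 24h_Ctrl (7.40) and lowest in 24h_Giv_Cyt (6.93), and miR-124-3p highest in 24h_Cyt (6.21) and lowest in 24h_Ctrl (5.96), again with overlapping neighbours throughout. The 8 group means of each near-background miR spanned 0.13 for miR-9a-5p, 0.15 for miR-9a-3p and 0.19 for miR-137-3p.

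**Figure D4:**
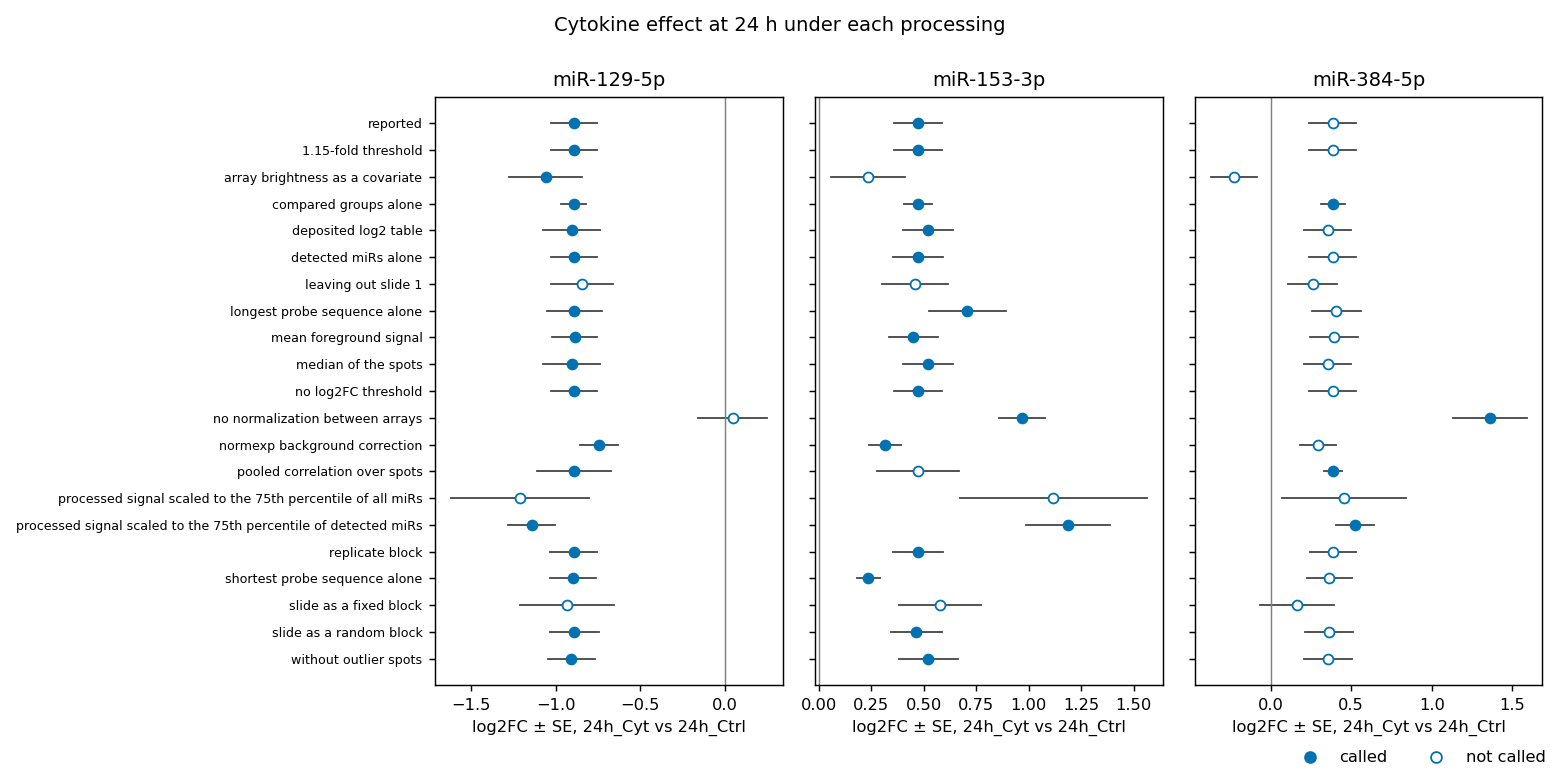
Log2FC of 24h_Cyt vs 24h_Ctrl with its SE (x axes) for miR-129-5p, miR-153-3p and miR-384-5p under the reported processing and 20 other settings (y axis); filled points were called. miR-129-5p lies below 0 except without normalization between arrays (0.04), miR-153-3p lies above 0 throughout (0.23 to 1.19), and miR-384-5p lies above 0 except with array brightness as a covariate (-0.23).

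Other miRs with a related place in the neuronal or islet programme were counted from lists. Of 11 other arms and paralogs of the members' hairpins, 10 were on the array, 2 were well above background (the miR-129 3p arms) and none was called in any comparison. Their median log2FC in 24h_Cyt vs 24h_Ctrl was 0.02, against -0.01 over all 758 miRs. Of 23 other brain-enriched miRs, all on the array, 3 were well above background on all 24 arrays, namely miR-132-3p, miR-212-3p and miR-539-5p, and none of the 23 was called in any comparison. Their median in 24h_Cyt vs 24h_Ctrl was -0.02. Of 12 other miRs tied to insulin exocytosis or the islet programme, 8 were well above background on all arrays, and 2 of the 12 were called, both higher in 24h_Cyt, where 2.64% of all 758 miRs were called higher. Over all miRs the calls in that comparison fell from 31 to 1 with slide as a fixed block and to 3 without slide 1. In the reported fit, the 2 called miRs of these 12 were miR-29a-3p (log2FC 0.76, adjusted p = 0.00537 from limma), a regulator of β-cell exocytosis genes, and miR-96-5p (0.71, adjusted p = 0.00912). The median of the 12 was 0.19 without and -0.01 with Givinostat.

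For each detected member, the non-member miRs with the closest pattern were sought by Pearson r over the 24 arrays among 163 miRs. The arrays share slides and brightness, so r is a description. For miR-129-5p these were miR-93-5p (r = 0.900) and miR-3099 (0.822), for miR-153-3p miR-101a-3p (0.935) and miR-598-3p (0.925), and for miR-384-5p miR-192-5p (0.911) and miR-21-5p (0.894). For miR-124-3p they were miR-101b-3p (0.952) and miR-30e-5p (0.936), and for miR-128-3p miR-342-3p (0.933) and miR-132-3p (0.909).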

How the data were processed

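RNA of INS1 cells was measured on 24 one-colour Agilent rat miRNA arrays, 3 in each of 8 groups. Each deposited scanner file came from Agilent Feature Extraction (10.7.3.1 in the file headers) and gives the intensity of every spot, linear and not normalized between arrays. A deposited table gives log2 values per miR, equal to the median of the 16 quantile-normalized spots (median absolute difference 2.63e-10, column medians 5.52 to 5.54).

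After removal of control spots, the uncorrected median foreground intensity was quantile-normalized between arrays and log2-transformed. Each of the 758 miRs was then the mean of its 16 spots on an array, so the signals include background and understate the change of dim miRs. limma 3.58.1 in R 4.3.3 was fitted to the 24 arrays with a mean per group (16 residual degrees of freedom), and p was adjusted by Benjamini-Hochberg within each comparison. The study's fit, limma's pooled correlation over spots, was kept as an alternative, since spots are not independent samples.

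The members, lists and tests were chosen with earlier results of these data known. The detection rule (8 of 16 marked spots) was set after the data were seen. miRs named are the 8 members, their seed mates, miR-30d-5p, the 2 closest patterns of each detected member and some cell type markers. Of the listed miRs, the others named were called, share a hairpin with a member, or are brain-enriched and well above background on all arrays. Seeds and hairpin genes come from RefSeq (GRCr8), positions from the array's annotation (rn4).

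Samples with the same replicate number deviated together (every r above 0.1) in 2 of the 12 comparisons, 24h_Cyt vs 24h_Ctrl (r 0.34 to 0.73) and 24h_Cyt vs 6h_Cyt (0.18 to 0.81); the pairing comes from this check, not from the labels. On simulated arrays made for 24h_Cyt vs 24h_Ctrl (758 miRs), 100% of miRs shifted by a log2FC of 1 and 95% of those shifted by 0.5 were called, with 2 unchanged miRs called. The simulated noise was independent between miRs and between arrays and held no slide or brightness effect. These shares therefore do not describe the real comparison, whose groups differ in both. Alternatives were 15 planned settings and the omission of each array, with 5 more added after the data were seen (removal of outlier spots, array brightness as a covariate, the longest or the shortest probe alone, and a 1.15-fold threshold). Among the planned settings, the median of the spots and the deposited table give the same values within rounding, so they are not separate checks. With 3 arrays per group, their number limits the precision. Plots were made in Python 3.11.15 (matplotlib 3.10.9). The study's qRT-PCR, islet and transfection experiments were not analysed here.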

Additional observations from a re-analysis of the deposited data

How the results depend on the processing

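Over 20 other settings, of which 14 changed the value, and the omission of each of the 24 arrays in turn, the sign of the miR-129-5p change in 24h_Cyt vs 24h_Ctrl was kept under all but 1 setting, no normalization between arrays. There it was 0.045, and other values that turned were those of miR-129-5p in 24h_Cyt vs 6h_Cyt (0.20), 24h_Giv_Ctrl vs 24h_Ctrl (0.078), 24h_Giv_Cyt vs 24h_Cyt (-0.21), 24h_Giv_Cyt vs 6h_Giv_Cyt (0.040), 6h_Cyt vs 6h_Ctrl (0.066) and the 24 h Givinostat term (-0.29), of miR-128-3p with cytokines (0.57 without and 0.16 with Givinostat) and of miR-384-5p in 24h_Giv_Cyt vs 24h_Giv_Ctrl (0.46). The processed signal scaled over all miRs turned miR-129-5p in 24h_Giv_Cyt vs 24h_Cyt (-0.083) and its 24 h Givinostat term (-0.013), and miR-153-3p in 24h_Giv_Cyt vs 24h_Giv_Ctrl (-0.15). Array brightness as a covariate turned, in 24h_Cyt vs 24h_Ctrl, miR-137-3p (-0.0014), miR-384-5p (-0.23), miR-9a-3p (-0.13) and miR-9a-5p (-0.027), and miR-153-3p under Givinostat (-0.025), which outlier removal turned too (-0.027). The value of miR-384-5p in 24h_Giv_Cyt vs 24h_Giv_Ctrl, close to 0, became 0.0031 with the median of spots and with the deposited table, 0.0025 with the longest probe, 0.14 with the processed signal scaled over detected miRs and 0.022 with slide as a fixed block. With arrays left out, values that changed sign ranged from -0.055 to 0.19 (miR-129-5p, 24h_Giv_Cyt vs 24h_Cyt), from -0.0063 to 0.12 (miR-153-3p, 24h_Giv_Cyt vs 24h_Giv_Ctrl) and from -0.10 to 0.044 (miR-384-5p, same comparison). The cause was not tested.

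Of the 8 miRs, 3 were called in 24h_Cyt vs 24h_Ctrl. That number was 0 with slide as a fixed block, without slide 1 and with the processed signal scaled over all miRs, 1 with array brightness as a covariate (miR-129-5p), 6 with the processed signal scaled over detected miRs and 7 without normalization. In 24h_Giv_Cyt vs 24h_Giv_Ctrl it was 1, and 0 with the compared groups alone and with the longest probe, 3 with the scaling over detected miRs and 5 without normalization (without miR-129-5p). Where no member was called, the pooled correlation test called 1 in 24h_Giv_Cyt vs 24h_Cyt, in 6h_Giv_Cyt vs 6h_Cyt and in the 24 h Givinostat term (miR-384-5p each time) and 2 in the time term. The scaling over detected miRs called 2 in 24h_Cyt vs 6h_Cyt, 1 in 24h_Giv_Ctrl vs 24h_Ctrl, 1 in 24h_Giv_Ctrl vs 6h_Giv_Ctrl, 1 in 24h_Giv_Cyt vs 24h_Cyt, 1 in the 24 h Givinostat term and 2 in the time term. No normalization called 6 in 24h_Cyt vs 6h_Cyt, 3 in 24h_Giv_Cyt vs 6h_Giv_Cyt and 3 in the time term, and the compared groups alone and detected miRs alone called 1 in the time term. With arrays left out the number ranged from 1 to 4 in 24h_Cyt vs 24h_Ctrl and from 0 to 1 in 24h_Giv_Cyt vs 24h_Giv_Ctrl, 24h_Cyt vs 6h_Cyt and the time term. The replicate block pairs the arrays of all 8 groups by replicate number, although the pairing check passed in only 2 of the 12 comparisons. With it, 3 members were again called in 24h_Cyt vs 24h_Ctrl (log2FC of miR-129-5p -0.89, adjusted p = 0.0016 from limma). The block changed no other call of a member. Over all 758 miRs the count in 24h_Cyt vs 24h_Ctrl was 31, against 48 with the pooled correlation test, 1 with slide as a fixed block and 3 without slide 1.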
